A study of Mus musculus with 6 samples.

Results

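Interleukin receptors are built from chains that join around a cytokine and carry the signal through JAK kinases to STAT transcription factors. A ligand-binding chain decides which cytokine is recognised, and a common chain is often shared by several receptors. Il2rg encodes the common gamma chain, Il6st encodes gp130, the signalling chain of the IL-6 family, and Il10rb encodes the second chain of the IL-10 receptor and of some related receptors. The IL-17 receptor, with Il17ra as its shared chain, signals instead through the adaptor Act1 and TRAF proteins. In macrophages IL-4 and IL-13 drive alternative activation, and IL-10 restrains inflammatory gene expression.

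The data cover 10 interleukin receptor chain genes, chosen by symbol (Il4ra, Il13ra1, Il2rg, Il6ra, Il6st, Il10ra, Il10rb, Il15ra, Il17ra and Il21r), of 23154 genes listed. Poly(A) RNA was sequenced from 2 stable lines of RAW264.7 cells, which are mouse cells with macrophage features, with 3 dishes of each line. The NUR77 line held pINDUCER20b-HA-NUR77, from which doxycycline induces NUR77 with an HA tag. NUR77 is a nuclear receptor and the product of Nr4a1. The GFP line held pINDUCER20b-GFP and served as control. Both lines, controls included, had received 1 µg/mL doxycycline for 18 hours, and the labels name no cytokine or microbial stimulus. Each group is 1 stable line, so differences between the lines cannot be told apart from an effect of the transgene, and a p-value here reflects dish-to-dish spread. The data hold no library without doxycycline.

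A level in normalized reads is the number of reads on a gene for every 10000000 reads on all genes of that library. Depth was 11199468 to 14354453 reads per NUR77 library and 14350490 to 15929487 per GFP library. Nr4a1 had 288, 314 and 297 normalized reads in the NUR77 libraries, against 170, 148 and 161 in the GFP libraries, a rise of 0.90 on the log2 scale (limma adjusted p = 5.5e-08). The values do not separate transgene from endogenous reads. The labels do not give the species of the transgene, so whether its reads count on mouse Nr4a1 is unknown. The rise is therefore no measure of the size of the induction. Of 10 macrophage markers, all had reads, and their summed level was 28200 to 30000 normalized reads in NUR77 libraries against 60900 to 62200 in GFP libraries. That difference lay in Lyz2, at 2566 ± 505.5 normalized reads in the NUR77 line and 26660 ± 848.5 in the GFP line, and in Cd68, at 5136 ± 240.5 in the NUR77 line and 14010 ± 253.9 in the GFP line. The other 8 markers summed to 21200 to 21600 in NUR77 libraries and 20500 to 20900 in GFP libraries. These near-equal sums join opposite changes. Itgam was at 9598 ± 387.6 normalized reads in the NUR77 line and 4224 ± 57.85 in the GFP line. Cd14, Csf1r and Adgre1 were lower in the NUR77 line, by 1.26, 0.77 and 0.59 on the log2 scale. Of the 9 tested markers 5 fell, 2 rose (Itgam by 1.18 and Fcgr1 by 0.23 on the log2 scale) and 2 were not called (Ptprc and Spi1), and Mertk was near 0 in both lines. The part of these differences in the receptor results was not tested. T and NK cell markers summed to at most 1.79 normalized reads in a NUR77 library and 1.96 in a GFP library, with Cd3d, Cd3e, Cd3g and Trac at 0 reads. B cell markers summed to 12.5 to 30.0 normalized reads in NUR77 libraries, nearly all from Cd79b, and to 2.09 to 3.27 in GFP libraries, with Ms4a1 at 0. Fibroblast, endothelial and epithelial markers summed to 41.4 to 112 normalized reads in NUR77 libraries and 20.9 to 24.4 in GFP libraries, with Pdgfra, Cdh1 and Krt8 at 0. Of these, Pecam1 averaged 27.9 ± 2.40 in the NUR77 line and 1.07 ± 0.99 in the GFP line. Skeletal muscle markers summed to 104 to 268 in NUR77 libraries and 375 to 426 in GFP libraries. Tnni2 made up most of each sum except in NUR77 replicate 1, where it was 96.4 of 268. NUR77 replicate 1 stood apart in muscle and fibroblast genes. It had Acta1 at 51.8 normalized reads, against 12.5 and 8.75 in the other NUR77 libraries and 7.53 to 9.76 in the GFP libraries. It had Col3a1 at 62.5, against 13.2 and 6.36 in the other NUR77 libraries and 9.15 to 13.24 in the GFP libraries. Without that library the same 9 receptor chains were called in the same directions. In bulk RNA a change in the number of cells of a type and a change in RNA per cell cannot be told apart.

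All 10 chains had a mean of 10 or more normalized reads and were tested. Of these, 5 rose in the NUR77 line, 4 fell and 1 was not called, by limma with p-values adjusted by the Benjamini-Hochberg method over 11201 tested genes at a threshold of 0.05. Over all tested genes 66.7% were called, 38.4% higher and 28.3% lower, and the 9 calls among 10 genes are to be read against that background. The ranges of the lines did not overlap for any of the 10 chains, against 70.6% of all tested genes. A called change reached 2-fold in 5 of the 10 chains, against 13.9% of all tested genes. The members' median log2 fold change was 0.31, against 0.06 over all tested genes. The members and the lists read further below were chosen with earlier results of these data known. A share or median set beside that of all tested genes is therefore descriptive and not a test. Il4ra, Il13ra1, Il6ra, Il10ra and Il17ra rose, and Il2rg, Il6st, Il10rb and Il21r fell. Grouped by role after the values were seen, the common chains Il2rg, Il6st and Il10rb were all lower, and Il4ra, Il6ra and Il10ra, ligand-binding partners of these, were higher. Il15ra, also a ligand-binding chain used with Il2rg, was not called. Il21r, a further partner of Il2rg, was lower, and Il17ra, the shared chain of another family, was higher.

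**Figure D1:**
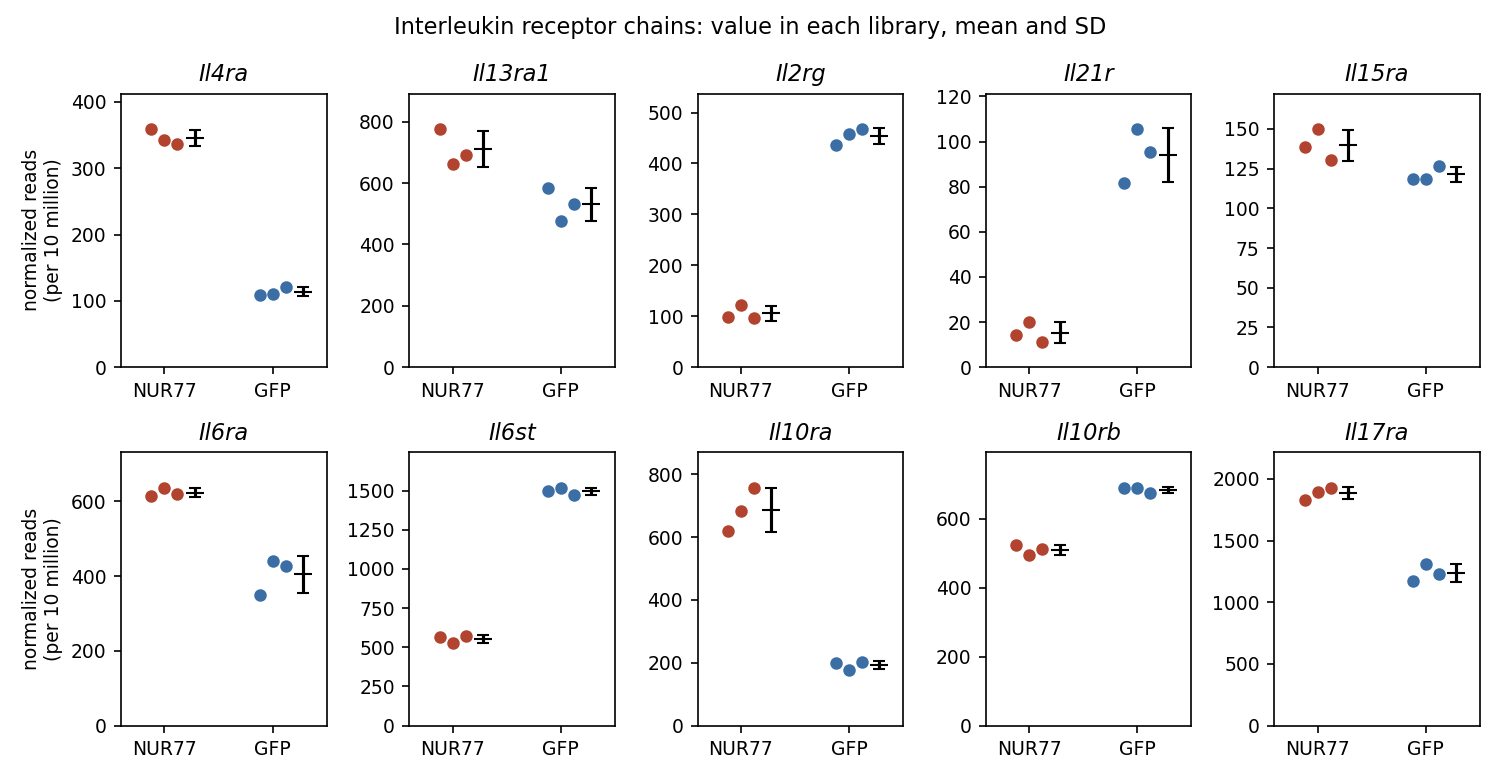
Normalized reads (reads per 10000000, linear axis from 0) of each of the 10 chains in the 3 NUR77 and 3 GFP libraries; points are libraries, and the black mark beside them is the mean with its SD. The ranges of the 2 lines do not overlap for any chain, and Il15ra shows the smallest separation, with 130.5 to 149.8 in NUR77 libraries and 118 to 127 in GFP libraries.

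Il4ra and Il21r lie next to each other on chromosome 7 on the same strand, 23955 bases apart, and moved in opposite directions. The bases before their RefSeq start sites (GRCm38.p6, plus strand, chr7:125552021-125552270 for Il4ra and chr7:125603179-125603428 for Il21r) are shown because these are the 2 members that neighbour each other. For Il4ra, GENCODE M21 places the gene's first annotated base inside the printed window, at 125552120. Capitals mark a match to the NBRE, AAAGGTCA, the element that NUR77 is known to bind as a monomer, searched on both strands.
Il4ra: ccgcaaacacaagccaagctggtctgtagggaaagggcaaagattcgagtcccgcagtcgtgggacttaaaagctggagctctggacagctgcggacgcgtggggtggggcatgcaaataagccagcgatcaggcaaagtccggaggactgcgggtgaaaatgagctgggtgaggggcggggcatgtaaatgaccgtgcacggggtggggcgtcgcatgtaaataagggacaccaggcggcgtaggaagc
Il21r: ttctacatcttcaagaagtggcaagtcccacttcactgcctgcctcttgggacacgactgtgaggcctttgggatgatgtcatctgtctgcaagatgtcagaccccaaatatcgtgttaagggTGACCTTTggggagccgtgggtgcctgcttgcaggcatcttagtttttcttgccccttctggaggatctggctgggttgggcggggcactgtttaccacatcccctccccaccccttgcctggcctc

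RefSeq windows were at hand for 7 of the 10 members (Il4ra, Il21r, Il2rg, Il13ra1, Il6ra, Il6st and Il15ra, the last with 2 start sites). The NBRE letters were found in 1 of these 7, in the Il21r window as the reverse complement, beginning 127 bases before the start. The same letters occur in 1.34% of all 32851 windows of 250 bases. The STAT letters TTCNNNGAA were found in 0 of the 7 and in 7.02% of all windows, and the same half-sites with a spacer of 4 bases in 0 of the 7 and in 5.85% of all windows. TGANTCA, the AP-1 letters, was found in the Il15ra window, 30 bases before its second start site, and in 6.75% of all windows. A match describes letters only.

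Il4ra (ENSMUSG00000030748, chromosome 7, 125552120 to 125579474, mm10, plus strand) encodes the IL-4 receptor alpha chain, used by both IL-4 and IL-13. It had 359, 342 and 337 normalized reads in the NUR77 libraries, against 109, 111 and 122 in the GFP libraries. Every NUR77 library lay far above every GFP library. On average it stood at 346 ± 11.7 in the NUR77 line and 114 ± 6.59 in the GFP line (SD with n = 3 in each, here and below), a 3.02-fold rise, or 1.59 on the log2 scale with an SE of 0.08 (limma adjusted p = 3.4e-11). An antisense gene is annotated within Il4ra, and another within Il6ra. The library kit keeps strand, but whether counting used it is not stated, so the reads of such pairs cannot be told apart.

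Il13ra1 (ENSMUSG00000017057, chromosome X, 36112110 to 36171259, plus strand) encodes the chain that joins Il4ra to form the type II receptor for IL-4 and IL-13. The NUR77 libraries held 776, 664 and 691 normalized reads and the GFP libraries 584, 477 and 533. The lines were separated by less than for Il4ra, with means of 710.4 ± 58.4 normalized reads in the NUR77 line and 531 ± 53.4 in the GFP line. The rise was 1.34-fold, or 0.42 on the log2 scale with an SE of 0.08 (limma adjusted p = 1.4e-04).

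Il2rg (ENSMUSG00000031304, chromosome X, 101264378 to 101268255, minus strand), the common gamma chain of the receptors for IL-2, IL-4, IL-7, IL-9, IL-15 and IL-21, was low in all NUR77 libraries. It had 98.2, 123 and 96.3 normalized reads there, against 436, 458 and 467 in the GFP libraries. The mean was 106 ± 14.7 in the NUR77 line and 454 ± 15.9 in the GFP line, so the level was 4.29-fold lower in the NUR77 line (log2 fold change -2.10, SE 0.095, limma adjusted p = 4.8e-12). A same-strand protein-coding gene model, Gm20489, overlaps Il2rg, as Gm21970 overlaps Il10rb, and how shared reads were counted is not stated.

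Il21r (ENSMUSG00000030745, chromosome 7, 125603429 to 125633570, plus strand) encodes the IL-21 receptor chain that pairs with the common gamma chain. The NUR77 libraries had 14.3, 20.2 and 11.1 normalized reads, resting on 16, 29 and 14 reads, against 81.5, 105 and 95.4 in the GFP libraries. It was the lowest of the 10 chains in the NUR77 line, and no GFP library came near those values. Means of 15.2 ± 4.6 normalized reads in the NUR77 line and 94.1 ± 12.0 in the GFP line gave the largest change among the 10, 5.99-fold lower (log2 fold change -2.58, SE 0.20, limma adjusted p = 7.3e-09). The few reads make this the least precise of the 10 estimates, with a 95% interval of -3.01 to -2.15 for the log2 fold change.

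Il15ra (ENSMUSG00000023206, chromosome 2, 11705290 to 11734317, plus strand) encodes the high-affinity IL-15 binding chain, which can present IL-15 to neighbouring cells. Its values were 138, 149.8 and 130.5 normalized reads in the NUR77 libraries and 118, 119 and 127 in the GFP libraries. The ranges did not overlap, but the gap between them was small beside the spread within the NUR77 line. Il15ra averaged 140 ± 9.70 in the NUR77 line and 121 ± 4.76 in the GFP line, with a log2 fold change of 0.20 and a 95% interval of -0.01 to 0.41 (limma adjusted p = 0.088). The call was gained when the mean-variance trend was left out of limma (adjusted p = 0.039), and adjusted p ranged up to 0.28 over 16 alternatives.

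Il6ra (ENSMUSG00000027947, chromosome 3, 89864059 to 89913196, minus strand) encodes the IL-6 binding chain. It had 613, 636 and 619.8 normalized reads in the NUR77 libraries, against 348, 439 and 427 in the GFP libraries. GFP replicate 1 was the lowest of the 6, and the other GFP libraries were still below every NUR77 library. The means of 623 ± 12.0 in the NUR77 line and 405 ± 49.3 in the GFP line differed by 1.54-fold, or 0.63 on the log2 scale with an SE of 0.08 (limma adjusted p = 2.4e-06).

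Il6st (ENSMUSG00000021756, chromosome 13, 112464070 to 112510086, plus strand) encodes gp130, which the receptors for IL-6, IL-11, IL-27, LIF and oncostatin M share. The NUR77 libraries had 563, 527 and 569 normalized reads, against 1495, 1518 and 1473 in the GFP libraries. Replicates of each line lay close together, and the lines lay far apart. Il6st averaged 553 ± 23.0 in the NUR77 line and 1495 ± 22.4 in the GFP line, a 2.70-fold lower level in the NUR77 line (log2 fold change -1.43, SE 0.05, limma adjusted p = 4.4e-13).

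Il10ra (ENSMUSG00000032089, chromosome 9, 45253837 to 45269149, minus strand) encodes the IL-10 binding chain. It had 619, 682 and 757 normalized reads in the NUR77 libraries, against 201, 178 and 201 in the GFP libraries. This was the largest rise among the 10 chains, with means of 686 ± 69.4 normalized reads in the NUR77 line and 193 ± 13.1 in the GFP line. The rise was 3.53-fold, or 1.82 on the log2 scale with an SE of 0.08 (limma adjusted p = 4.1e-12).

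Il10rb (ENSMUSG00000022969, chromosome 16, 91406164 to 91425834, plus strand), the partner of Il10ra, went the other way by a smaller amount. The NUR77 libraries held 524, 495 and 513 normalized reads, and the GFP libraries 691, 689.9 and 675. Il10rb averaged 511 ± 14.5 in the NUR77 line and 685 ± 8.71 in the GFP line, or 1.34-fold lower in the NUR77 line (log2 fold change -0.42, SE 0.06, limma adjusted p = 5.2e-06).

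Il17ra (ENSMUSG00000002897, chromosome 6, 120463247 to 120487559, plus strand), the chain shared by receptors of the IL-17 family, had 1829.6, 1892 and 1929 normalized reads in the NUR77 libraries, against 1169, 1313 and 1230.1 in the GFP libraries. It was above every GFP library in all 3 NUR77 libraries. The rise was 1.52-fold, with means of 1883 ± 50.05 normalized reads in the NUR77 line and 1237 ± 72.6 in the GFP line (log2 fold change 0.61, SE 0.06, limma adjusted p = 4.1e-08).

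Levels of different genes were compared per kilobase of annotated exon, the union over a gene's transcripts, so that unused exons lower a value. On this scale the NUR77 line was led by Il17ra at 217, Il10ra at 196 and Il13ra1 at 191 normalized reads per kilobase. The libraries of Il17ra and Il10ra overlapped, as did those of Il10ra and Il13ra1. Il10rb followed at 134, then Il6ra at 72.1, Il4ra at 57.6, Il6st at 49.8 and Il2rg at 44.3, where only the last pair overlapped. Il15ra at 31.4 and Il21r at 4.58 normalized reads per kilobase closed the order. In the GFP line Il2rg came first at 190.1, ahead of Il10rb at 179.9, Il13ra1 at 143.1, Il17ra at 142.8 and Il6st at 135. Of these the libraries of Il13ra1 and Il17ra overlapped, and those of Il17ra and Il6st. Il10ra stood at 55.3, Il6ra at 46.9, Il21r at 28.3, Il15ra at 27.3 and Il4ra at 19.0, with overlap between Il21r and Il15ra. Il2rg thus ranked 8 of 10 in the NUR77 line and 1 in the GFP line, and Il4ra ranked 6 in the NUR77 line and 10 in the GFP line.

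**Figure D2:**
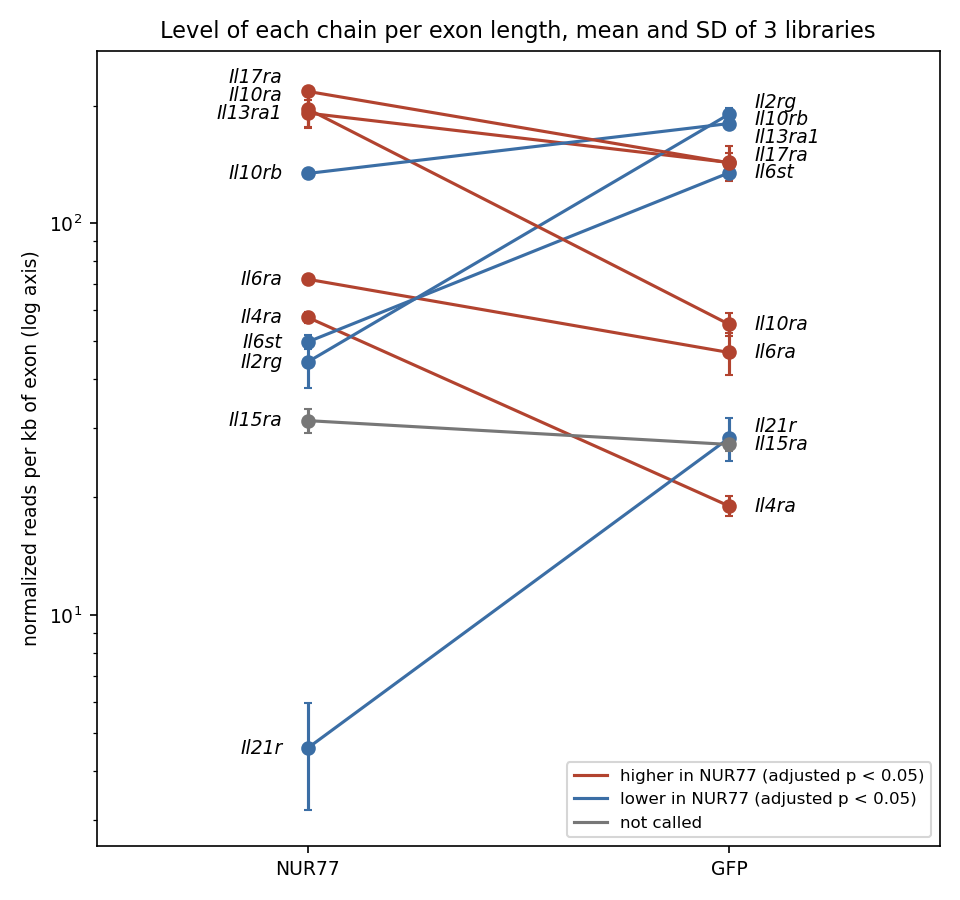
Mean level of each chain in normalized reads per kilobase of exon (log axis) in the NUR77 and GFP lines, with the SD of 3 libraries; red lines rose in NUR77, blue lines fell and grey was not called, labels are moved apart where they would collide. Il2rg is at 44.3 in the NUR77 line and 190.1 in the GFP line, and Il4ra is at 57.6 in the NUR77 line and 19.0 in the GFP line.

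The ratio of 2 chains of 1 receptor within a library does not depend on how libraries were scaled to each other. Ratios below are of normalized reads per kilobase of exon, so their size rests on the annotated lengths, but a difference between the lines does not. Il4ra over Il2rg, the chains of the type I IL-4 receptor, was 1.45, 1.11 and 1.39 in the NUR77 libraries and 0.0997, 0.0966 and 0.103 in the GFP libraries. The common gamma chain was thus far in excess in each GFP library and below Il4ra in each NUR77 library, a 13.1-fold difference in the ratio. Il4ra over Il13ra1, the type II pair, was 0.286, 0.319 and 0.301 in NUR77 libraries and 0.116, 0.144 and 0.141 in GFP libraries, a 2.27-fold difference.

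Il6ra over Il6st was 1.40, 1.55 and 1.40 in the NUR77 libraries, against 0.299, 0.372 and 0.372 in the GFP libraries, 4.18-fold apart. For Il10ra over Il10rb the ratios were 1.29, 1.5 and 1.61 in the NUR77 libraries and 0.316, 0.281 and 0.325 in the GFP libraries, 4.75-fold apart. In both receptors the ligand-binding chain exceeded its partner in every NUR77 library and was below it in every GFP library. Il15ra over Il2rg lay between 0.656 and 0.757 in NUR77 libraries and between 0.139 and 0.146 in GFP libraries. Il21r over Il2rg went the opposite way, at 0.0831 to 0.118 in NUR77 libraries and 0.134 to 0.165 in GFP libraries. The ranges did not overlap for any of the 6 ratios. An exact two-sided permutation test gave p = 0.1 for each, also after adjustment over the 6 ratios, which is the smallest value that 3 libraries against 3 can give.

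**Figure D3:**
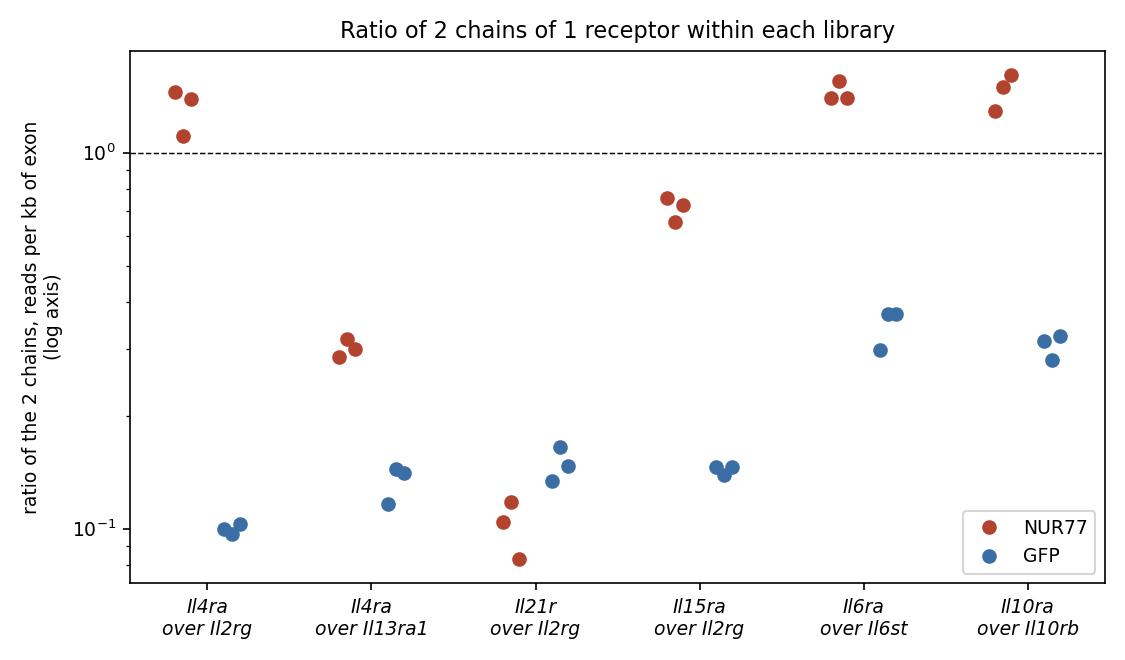
Ratio of 2 chains of the same receptor in each library, in reads per kilobase of exon (log axis), for 6 pairs; red points are NUR77 libraries, blue points GFP libraries, and the dashed line marks equal levels. Il4ra over Il2rg, Il6ra over Il6st and Il10ra over Il10rb are above 1 in all NUR77 libraries and below 1 in all GFP libraries.

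The nearest tested gene on each side was read for each chain. From here on, the amount by which a gene rose or fell is its log2 fold change. The neighbours of Il2rg, Foxo4 at 3505 bases and Med12 at 5775 bases, had log2 fold changes of -0.02 and -0.11 (limma adjusted p = 0.86 and 0.098). Ifnar2, an interferon receptor chain that ends 575 bases before Il10rb, was at 0.04 (adjusted p = 0.6), while Ifnar1 on the other side fell by 0.20 (adjusted p = 0.0032). On the far side of Il4ra, Nsmce1 rose by 0.37 (adjusted p = 2.0e-04), and beyond Il21r, Gtf3c1 rose by 0.26 (adjusted p = 2.7e-04). Beside other chains, 2 neighbours moved by more than 2-fold. Ankrd55, beside Il6st, fell by 1.69 (adjusted p = 7.4e-09), in the same direction as Il6st. Fxyd2, beside Il10ra, fell by 3.11 (adjusted p = 1.8e-15), against the rise of Il10ra. Dock11 and Kdm5a, beside Il13ra1 and Il17ra, rose by 0.72 (adjusted p = 1.4e-08) and 0.595 (adjusted p = 1.8e-08), as those chains did. Lonrf3, on the other side of Il13ra1, fell by 0.63 (adjusted p = 2.0e-08). Ube2q1 fell by 0.19 and Atp8b2 rose by 0.38 beside Il6ra, Slc38a9 fell by 0.21 beside Il6st (adjusted p = 0.027, a call lost under 5 of 16 alternatives), and Rbm17 rose by 0.33 beside Il15ra. Fbh1, Jaml and Hdhd5, beside Il15ra, Il10ra and Il17ra, were not called, at -0.04, -0.13 and 0.03.

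**Figure D4:**
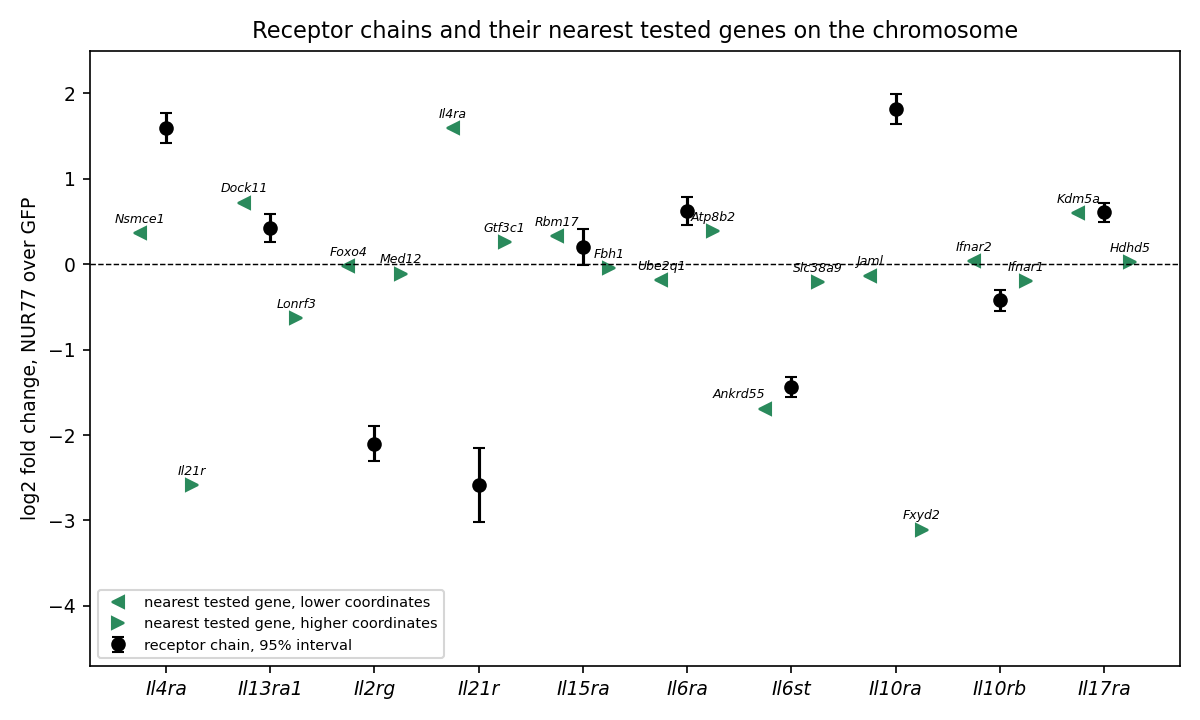
Log2 fold change, NUR77 over GFP, of each receptor chain (black, with its 95% interval from limma) and of the nearest tested gene at lower and higher coordinates (green triangles, named). Il4ra and Il21r, each other's nearest neighbours, are at 1.59 and -2.58, and the genes beside Il2rg are at -0.02 and -0.11 while Il2rg is at -2.10.

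Other interleukin receptor chains of the same families were read from a list of 27, of which 26 were in the table and 9 were tested. Of the 9, 6 fell, 2 rose and 1 was not called (over all tested genes 28.3% fell and 38.4% rose), and their median was -1.16 on the log2 scale, against 0.06 for all tested genes. Il20rb was at 10 normalized reads or more in the GFP line only. It entered the test through that line and gets no p-value, but the 6 that fell and the median include it. Il7r, the IL-7 receptor alpha chain and a further ligand-binding partner of Il2rg, had 31.3, 18.8 and 11.9 normalized reads in the NUR77 libraries, against 649, 548 and 561 in the GFP libraries. The log2 fold change was -4.86 with an SE of 0.31 (limma adjusted p = 8.1e-06), larger in size than that of any of the 10 members. Il17rc, the partner of Il17ra in the IL-17A receptor, averaged 71.3 ± 3.35 normalized reads in the NUR77 line and 176 ± 5.30 in the GFP line, a fall of 1.29 (adjusted p = 8.0e-09). It moved against the rise of Il17ra. Il20rb averaged 4.70 ± 1.32 normalized reads in the NUR77 line and 16.9 ± 0.54 in the GFP line, a log2 fold change of -1.68. Il11ra1, the IL-11 binding chain that pairs with gp130, fell too, with a log2 fold change of -1.499 (adjusted p = 1.6e-06). Il11ra1 has near-identical copies in the mouse genome, which makes its value uncertain. Il12rb1 was at 0.07 (adjusted p = 0.67). The 2 that rose, named after their values were seen, were Il9r (log2 fold change 0.45, adjusted p = 0.013, and 0.066 without GFP replicate 3) and Csf2rb, the common beta chain of the IL-3, IL-5 and GM-CSF receptors (0.73, adjusted p = 4.2e-09). Csf2rb shares near-identical sequence with Csf2rb2, which fell, so both values are uncertain. Il2rb, the chain through which IL-2 and IL-15 signal, had 11 reads in all NUR77 libraries together and 4 in all GFP libraries.

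Ligands of the 10 chains were listed as 22 genes, of which 16 were in the table and 5 were tested. Il10, Il6 and Lif reached 10 normalized reads only in the NUR77 line and Il15 only in the GFP line. So 4 of the 5 entered the test through the line in which they were higher. The list gets no count or median, and these 4 genes get no p-value. The fifth, Osm, was above that level in both lines and rose by 0.41 (limma adjusted p = 0.0017). Il10, the ligand of Il10ra and Il10rb, had 39.3, 46.7 and 54.9 normalized reads in the NUR77 libraries and no read in any GFP library. It was at least 71.7-fold higher, taking 3 reads over the GFP group as the limit. Il6 had 130 reads in the NUR77 line and 3 in the GFP line, a ratio of 51.8 with an exact 95% binomial interval of 17.3 to 254 that covers counting error only. Lif, which signals through gp130, had 164 reads in the NUR77 line and 27 in the GFP line. Its log2 fold change was 2.71, or 2.11 with a pseudocount of 5. Il15, the ligand of Il15ra, was lower by 1.715, with means of 8.88 ± 0.77 in the NUR77 line and 31.4 ± 1.27 normalized reads in the GFP line. Il4 and Il25 had no read in any library, and Il13 had 1 read in all, in the NUR77 line. With 38123231 reads in the NUR77 line and 45579861 in the GFP line, no read allows up to 0.787 normalized reads in the NUR77 line and 0.658 in the GFP line.

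JAK kinases and STAT factors, which act below the hematopoietin receptors, were tested for 10 of 11 genes, with 7 that rose and 1 that fell and a median log2 fold change of 0.61 (all tested genes: 38.4% rose, 28.3% fell, median 0.06). Stat3, the main STAT of IL-6 and IL-10, had 2822, 3044 and 2727 normalized reads in the NUR77 libraries, against 786, 831 and 842 in the GFP libraries, and rose by 1.80 (SE 0.05, limma adjusted p = 3.0e-14). Jak3, the kinase bound to the common gamma chain, rose by 1.64 (adjusted p = 4.0e-11), while Il2rg itself fell. Jak2 rose by 0.79 (adjusted p = 4.9e-09). Jak1 was at 0.11 (adjusted p = 0.053) and Stat5b at -0.09 (adjusted p = 0.18). The 1 gene that fell, named after its value was seen, was Stat6, the STAT of IL-4 and IL-13 (-0.35, adjusted p = 6.7e-06).

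Feedback inhibitors, phosphatases, IL-17 receptor adaptors and receptor sheddases were tested for 14 of 16 genes, with 8 that rose and 4 that fell and a median log2 fold change of 0.42, beside the same 38.4%, 28.3% and 0.06 over all tested genes. Cish, a STAT5-induced inhibitor, averaged 198 ± 31.8 normalized reads in the NUR77 line and 4.19 ± 0.60 in the GFP line. Its log2 fold change was 5.26, or 4.46 with a pseudocount of 5. Cish was the only tested gene of this list under 10 normalized reads in 1 line. It entered the test through the NUR77 line and gets no p-value, but the 8 that rose and the median include it. Socs3, which inhibits signalling at gp130, rose by 2.34 (limma adjusted p = 1.4e-12). Ptpn6, the phosphatase SHP-1, rose by 1.70 (adjusted p = 5.0e-14). Traf3ip2, which encodes Act1, the adaptor of the IL-17 receptor, rose by 1.08 (adjusted p = 3.9e-09). Adam10, a protease that can shed the IL-6 receptor, was at 0.11 (adjusted p = 0.056), and Pias1 at 0.11 (adjusted p = 0.13). The 4 that fell were named after their values were seen. Adam17, the other sheddase listed, fell by 0.40 (adjusted p = 1.4e-06). Traf6, which acts with Act1 below the IL-17 receptor, fell by 0.59 (adjusted p = 2.8e-07) against the rise of Traf3ip2. Ptpn1, a phosphatase, fell by 0.32 (adjusted p = 8.6e-05), and Traf5 by 0.31 (adjusted p = 0.044), a call lost under 6 of 16 alternatives.

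Genes known to be induced by IL-4 in mouse macrophages were tested for 10 of 21. Of these, Ccl22, Cish and Il4i1 reached 10 normalized reads only in the NUR77 line. They entered the test through the line in which they were higher, so the list gets no count or median and they get no p-value. Ccl22, a chemokine gene, had 2630, 2126 and 1049 normalized reads in the NUR77 libraries. It averaged 1935 ± 808 there and 1.32 ± 0.07 in the GFP line, where it had 6 reads in all. Myc rose by 3.35 (adjusted p = 1.0e-13), and Clec7a, the beta-glucan receptor dectin-1, fell by 3.58 (adjusted p = 5.5e-12). Egr2 was at -0.33 (adjusted p = 0.066) and Irf4 at 0.13 (adjusted p = 0.66). Retnla, Chil3 and Ccl17, common markers of IL-4 exposure, had no read in any library. Genes known to be induced by IL-10 were tested for 9 of 10, with 8 that rose and 1 that fell (38.4% and 28.3% of all tested genes) and a median log2 fold change of 1.20. Bcl3, an atypical I-kappa-B protein gene, rose by 4.02 (adjusted p = 2.9e-12), Nfil3 by 1.62 (adjusted p = 3.8e-12) and Pim1 by 1.60 (adjusted p = 3.1e-12), and Socs3 counts here too. The 1 that fell, named after its value was seen, was Il1rn (-0.33, adjusted p = 0.0034). Many of these genes also respond to other stimuli, so the lists are not specific to a cytokine.

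**Figure D5:**
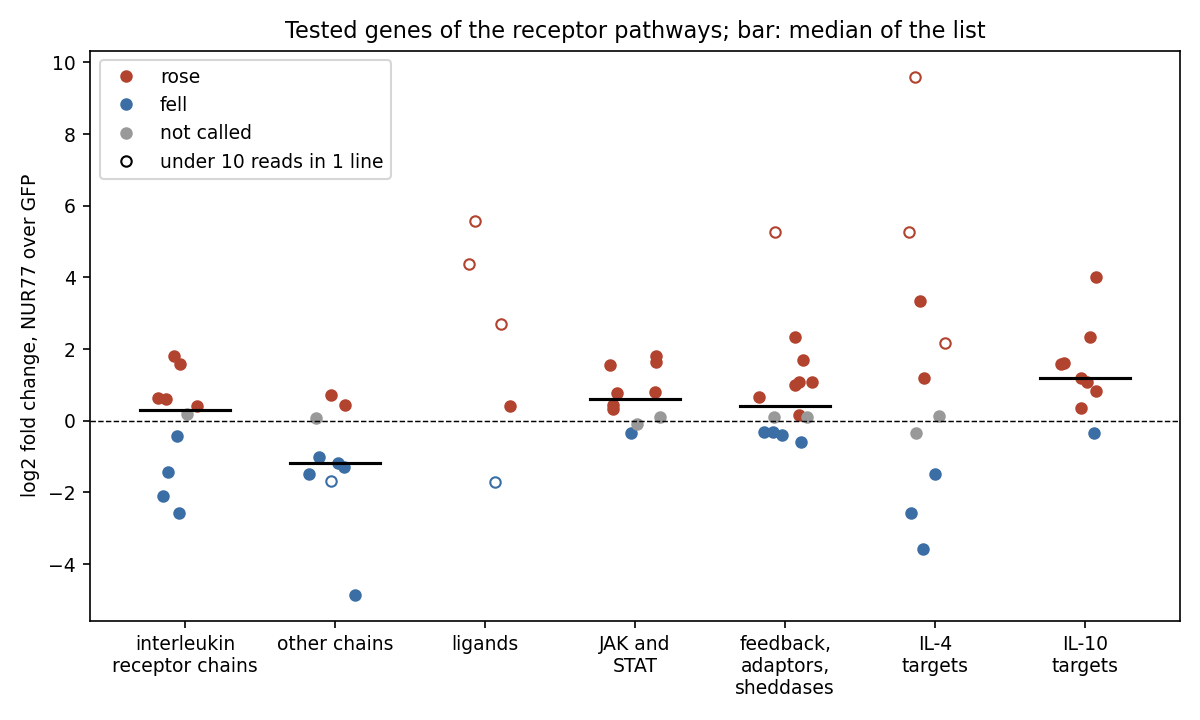
Log2 fold change, NUR77 over GFP, of every tested gene in 7 lists: the 10 receptor chains, other chains, ligands, JAK and STAT genes, regulators, and genes induced by IL-4 and by IL-10; red points rose, blue points fell, grey points were not called, open points are genes at 10 normalized reads or more in 1 line only, and bars are medians, left out for lists with more than 1 open point. The chains spread on both sides of 0 (median 0.31). Of the other chains, 6 of 9 lie below it (median -1.16), with Il20rb as an open point, and 4 of the 5 ligands are open points.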

How the data were processed

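For 23154 Ensembl mouse genes, the deposited values are log2, with each library in a column of its own. TopHat2 2.1, HTSeq and DESeq2 with the mm10 build are named per the submitters' processing notes. Their roles, the annotation release and the strand setting are not stated there. Per the labels, strand-specific poly(A) libraries were sequenced. From the values, each entry is the log2 of normalized reads plus 1, each library sums to 10000000, and 100% of values are whole reads within 0.1 read. The scaling sets equal totals, so abundant genes that differ shift all others.

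Names, coordinates and exon lengths came from GENCODE M21 (mm10), which named 22888 genes, and promoter windows from RefSeq (GRCm38.p6). The test was limma 3.58.1 (R 4.3.3) with trend and robust moderation, applied to all 6 libraries on the scale log2(normalized reads + 1), for genes whose mean reached 10. Fold changes are on that scale, which understates low genes. Chain ratios were tested with scipy 1.17.1. The members and lists were chosen with earlier results of these data known. All 10 members are named. Of each other list, up to 4 called genes with the largest change and up to 2 uncalled genes with the highest mean are named. The nearest tested genes are named too. A gene that this rule would name is not reported here. The methods were tested on simulated data in which few genes changed, equally often up and down. That setting does not cover data in which 66.7% of tested genes are called. Alternatives were other pseudocounts, filters and scalings, limma without trend, limma-voom, a replicate block and leaving out each library.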

Additional observations from a re-analysis of the deposited data

How the results depend on the processing

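Over 16 alternatives the same 9 receptor chains stayed called in the same direction, and their log2 fold changes moved little, for example from 1.52 to 1.64 for Il4ra and from -2.80 to -2.31 for Il21r. Il15ra, at 0.20, passed without the trend (adjusted p = 0.039) and under no other alternative (adjusted p up to 0.28). The median of all tested genes was 0.06 as deposited and -0.01 under TMM scaling. Over all genes 7475 were called, 4305 higher and 3170 lower, against 3612 higher and 3835 lower under TMM, and 6751 to 7268 in all when 1 library was left out. The 6 chain ratios kept their direction when each library was left out, for example between 3.64 and 3.83 on the log2 scale for Il4ra over Il2rg. Of the other genes with alternatives, 7 that were not called changed sign. With 1 library left out, Il12rb1 ranged from -0.014 to 0.197, Irf4 from -0.057 to 0.303, Foxo4 from -0.113 to 0.036, Hdhd5 from -0.018 to 0.108, Ifnar2 from -0.002 to 0.102 and Jaml from -0.449 to 0.038. Under TMM, upper-quartile and median-of-ratios scaling, Hdhd5 was at -0.046, -0.035 and -0.030, Ifnar2 at -0.034, -0.022 and -0.017, and Ptprc at -0.049, -0.037 and -0.032. The cause was not tested. Egr2, Stat5b and Med12 passed as lower under TMM, upper-quartile and median-of-ratios scaling. Egr2 also passed without trend and without NUR77 replicate 2, Jak1 and Adam10 without NUR77 replicate 3, Med12 without GFP replicate 2, and Pias1 without NUR77 replicate 1. Calls were lost for Il9r, Slc38a9 and Traf5 (in 1, 5 and 6 alternatives). Same-numbered dishes shared only a number (correlations of deviations 0.002, 0.114 and 0.045). With a replicate block 7585 genes and 9 chains were called. The planned edgeR and DESeq2 tests were not run, a choice made by the deposited unit, although whole reads could be recovered. Limma-voom on recovered reads, chosen after seeing the data, called 7494 genes and 9 chains. Depth limits Il21r most, with 14 to 29 reads per NUR77 library.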

Other observations

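Some genes of the receptor pathways were below the level needed for the test but differed in their reads, and were picked after their values were seen. Il2ra, the IL-2 receptor alpha chain, had 16, 11 and 3 reads in the NUR77 libraries and none in the GFP line. Its 30 reads pooled over the NUR77 line gave a rise of at least 12.0-fold, taking 3 reads for the GFP line as the limit. That limit holds for the pooled line and not for each dish. Il12rb2, a chain of the IL-12 receptor, had 3 reads in the NUR77 line and 47 in the GFP line, a ratio of 0.0763 with an exact 95% binomial interval of 0.0152 to 0.237. Mrc1, the macrophage mannose receptor, had 2 reads in the NUR77 line and 41 in the GFP line, a ratio of 0.0583 (0.00683 to 0.225). Arg1, another gene induced by IL-4, had 4, 6 and 1 reads in the NUR77 libraries and none in the GFP line. Pooled, its 11 reads were at least 4.38-fold higher. These intervals cover counting error only.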
